A study of Mus musculus with 6 samples.

Results

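The genes described here encode the nuclear subunits of the respiratory complexes II to V and the carrier cytochrome c. They were taken from the deposited table of gene counts by symbol: Sdha to Sdhd for complex II, symbols that start with Uqcr together with Cyc1 for complex III, Cycs for cytochrome c, Cox4 to Cox8 symbols for complex IV, and symbols that start with Atp5 for complex V, without rows named as pseudogenes. The rule used no measured value, but the members were chosen with earlier results of these data known. It found 49 of the 56792 rows, of which 44 had enough counts for a test. None of these rows carries the symbol Cox4i1, the main widely expressed subunit 4 gene, so that gene was not analysed here.

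The libraries came from C2C12, an established mouse myoblast line labelled as wild type, whose cells fuse into myotubes when serum is lowered. All cells had differentiated for 4 days in horse serum. The treated group also received 1 µM lenvatinib, an inhibitor of the receptor kinases for vascular endothelial and fibroblast growth factors among others, and each group has 3 libraries. The labels do not say whether the untreated cells received the drug's solvent, on which days the drug was present or whether the replicates were grown separately. The tests therefore rest on library-to-library spread, which may be technical. C2C12 is a single clonal line grown without the nerve, vessels and load of a muscle.

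Complex II passes electrons from succinate to ubiquinone, complex III passes them on to cytochrome c, and complex IV passes them from there to oxygen. Complexes III and IV pump protons across the inner mitochondrial membrane, and complex V, the ATP synthase, lets the protons flow back to make ATP. In striated muscle some complex IV subunits exist as separate heart and muscle isoforms, which replace widely expressed forms as muscle matures.

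Library totals ranged from 24566768 to 32406563 counts, and the 49 genes held 0.645 to 0.662% of the counts in the untreated and 0.697 to 0.707% in the lenvatinib libraries. Levels are given as CPM, the gene's counts scaled to the library's total with TMM factors. A bracket such as the one after Sdha gives the log2 fold change (lenvatinib relative to untreated) with its SE, and adjusted p-values are from edgeR's quasi-likelihood test with Benjamini-Hochberg adjustment over the 14989 rows tested, called under 0.05. The summed level of 12 skeletal muscle markers was 17418 to 17945 CPM in the untreated and 18511 to 18611 CPM in the lenvatinib libraries. Of these markers 8 were called higher, and 2 were called lower, Des (3364 and 2949 CPM on average) and Cav3 (79.5 and 56.1 CPM). Myh3 (5973 and 6386 CPM) was the largest part of the sum. The 5 smooth muscle markers summed to 2331 to 2484 and 3698 to 3809 CPM (3 higher, 0 lower). Acta2 (2119 and 3207 CPM on average) made up most of these sums, Smtn was not called and Myh11 had 0 to 4 counts. The 4 markers of cycling cells summed to 170.3 to 201 and 201 to 215 CPM (2 higher, 0 lower). The 6 fibroblast markers summed to 809 to 845 and 858 to 949 CPM, but of the 4 tested only Col1a1 was called higher (483 and 615 CPM on average), while Pdpn (263 and 220.03 CPM) and Pdgfra (15.4 and 11.6 CPM) were called lower and Dcn was not called. The 7 cardiomyocyte markers summed to 28.1 to 32.9 and 29.6 to 32.0 CPM, with Myl7 at 0 and none called. Adipocyte markers summed to 16.5 to 19.3 and 10.4 to 11.5 CPM (1 lower; Plin1 and Ucp1 at 0), macrophage markers to 5.41 to 6.397 and 4.01 to 4.48 CPM (1 lower; Adgre1 at 0), and endothelial markers to 0.47 to 0.661 and 0.768 to 1.43 CPM. The part of these markers in the changes below was not tested, and in bulk RNA fewer cells of a type and less RNA per cell cannot be told apart.

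With lenvatinib 21 of the 44 tested genes rose and 2 fell, against a background of 13.3% of all tested rows called higher and 14.9% called lower. The members' share called higher was 47.7%, in a set chosen with earlier results of these data known. The changes were small: the risen genes were between 7.05% and 63.9% higher, with a median of 10.2%, and 18 of them were less than 15% higher. The median log2 fold change of the tested members was 0.094, beside 0.0027 over all rows tested. Rows with many counts are called more often, so the members were also read against the 5338 rows with a mean of at least 40 CPM, a limit chosen after the levels were seen. In these rows 19.3% were called higher and 19.6% lower, and of the 39 members above that level 19 (48.7%) were called higher and none lower; both members called lower, Cox6a2 and Atp5k, lie below that limit. At an unadjusted p under 0.05 1 of them, Cox7a2l, was lower, and DESeq2 and limma-voom called none lower. Every lenvatinib library lay above every untreated one in 24 of the 44 members and below in 4, where 19.6% and 20.5% of all rows did so (40.1% in either direction).

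**Figure D1:**
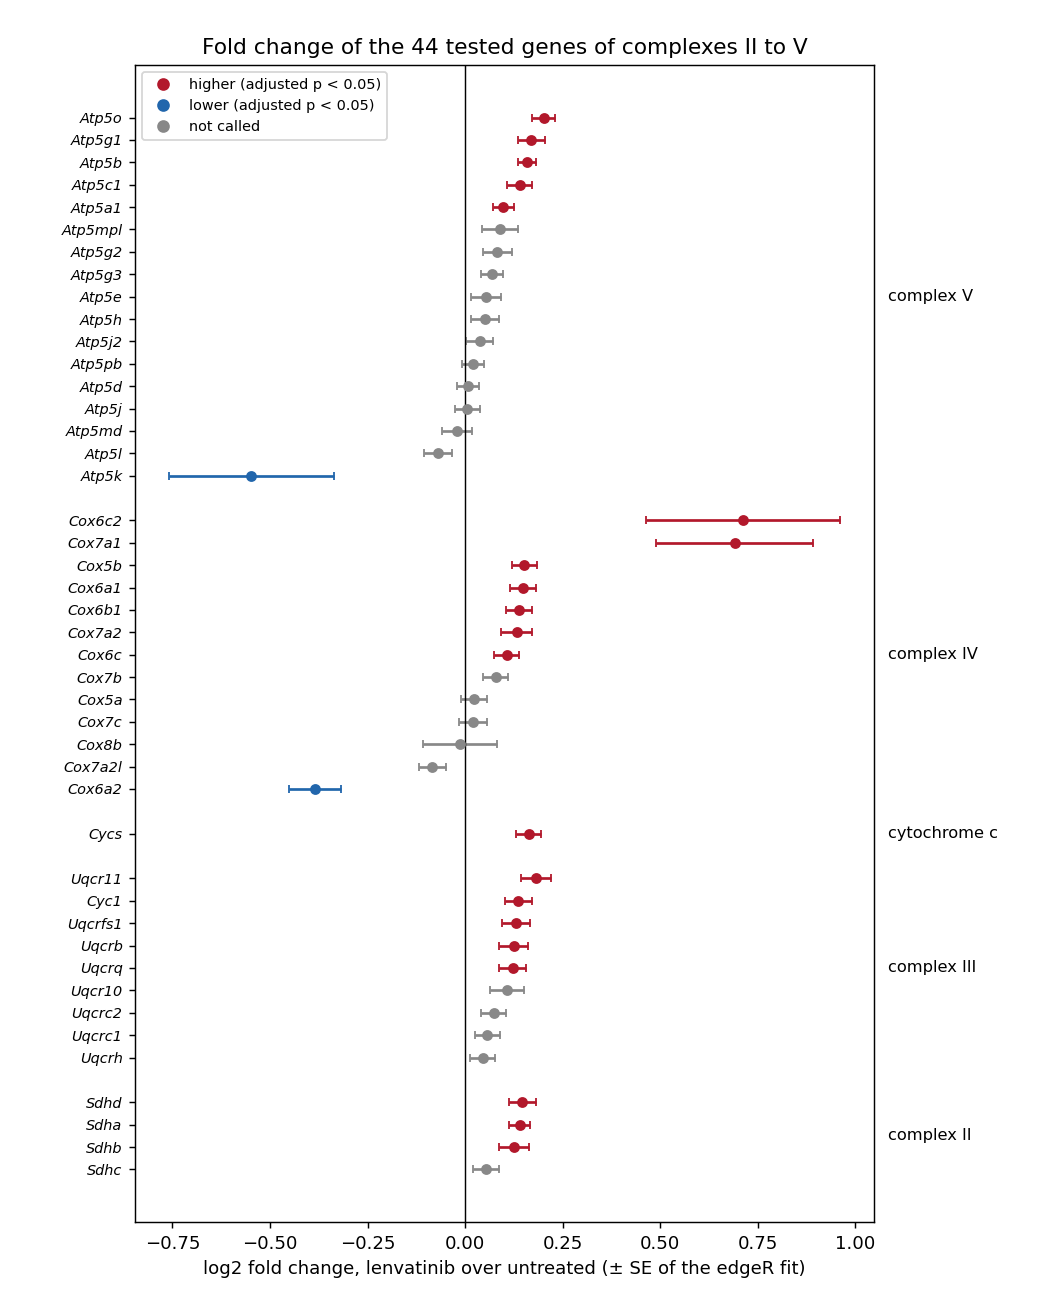
Log2 fold change of the 44 tested genes, lenvatinib over untreated, with the SE of the edgeR fit, in blocks by complex; red marks genes called higher, blue genes called lower and grey genes not called. Most points sit between 0 and 0.2, and the wide bars belong to Cox6c2, Cox7a1 and Atp5k, which had few counts.

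**Figure D2:**
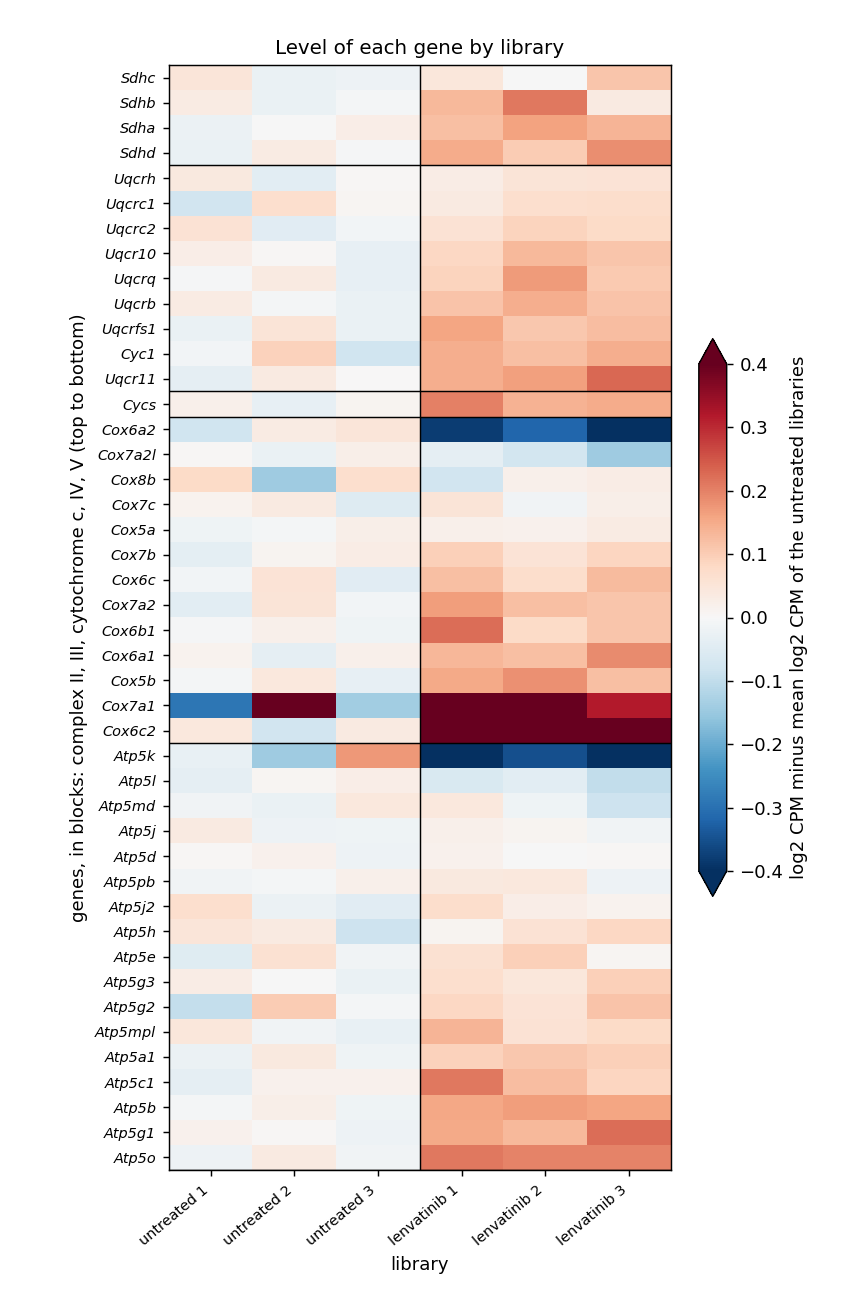
Level of each tested gene in each library as log2 CPM minus the mean log2 CPM of the untreated libraries, with colours limited at 0.4 in either direction. The 3 lenvatinib columns are shaded alike for most genes, and Cox6a2 and Atp5k stand out as lower.

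Complex II had 3 of 4 genes higher and none lower (none lower at an unadjusted p under 0.05, by DESeq2 or by limma-voom), with a median log2 fold change of 0.13. Sdha, which carries the flavin where succinate is oxidized, was at 240.5, 244 and 249 CPM in the untreated and 266, 273 and 269 CPM in the lenvatinib libraries. The lenvatinib libraries all lay above the untreated ones, and the gene rose by 10.1% (0.14 ± 0.028, adjusted p = 0.00011). Sdhb, the iron-sulfur subunit that passes the electrons on, was at 83.2, 79.8 and 80.8 CPM in the untreated and 89.01, 94.1 and 83.3 CPM in the lenvatinib libraries. The third lenvatinib library was close to the untreated level, and the rise of 9.06% (0.13 ± 0.039, adjusted p = 0.013) was no longer called without the second lenvatinib library (adjusted p = 0.158) or the second untreated one (adjusted p = 0.0555; 0.00135 to 0.158 over all alternatives). The membrane anchors bind ubiquinone. Sdhd was at 83.00, 86.5 and 84.2 CPM in the untreated and 93.8, 90.7 and 96.1 CPM in the lenvatinib libraries, a rise of 10.7% (0.15 ± 0.036, adjusted p = 0.00124) without overlap. Sdhc was at 138, 131 and 131 CPM in the untreated and 137, 133 and 144 CPM in the lenvatinib libraries. Its groups overlapped and it was not called (0.053 ± 0.033, adjusted p = 0.257). Per kilobase of annotated exon, Sdhd (68.7 CPM) and Sdha (59.2 CPM) were above Sdhc (39.0 CPM) and Sdhb (33.6 CPM) in the untreated cells. The annotated length counts rarely used exons, which lowers such values.

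Complex III had 5 of 9 genes higher and none lower (7 higher and none lower at an unadjusted p under 0.05, none lower by DESeq2 or limma-voom), with a median of 0.12. Uqcr11, a small subunit of the membrane part, was at 69.5, 73.2 and 71.3 CPM in the untreated and 78.9, 79.95 and 83.6 CPM in the lenvatinib libraries. Its groups did not overlap and it rose by 13.4% (0.18 ± 0.038, adjusted p = 0.000188). Cyc1, the heme subunit that hands electrons to cytochrome c, was at 143, 154 and 137 CPM in the untreated and 160.04, 157 and 159.9 CPM in the lenvatinib libraries. The untreated libraries of Cyc1 varied more than the lenvatinib ones, and all lay below them (0.14 ± 0.034, adjusted p = 0.00224). Uqcrfs1, the Rieske iron-sulfur protein, was at 86.6, 91.4 and 86.5 CPM in the untreated and 98.4, 95.01 and 95.96 CPM in the lenvatinib libraries, a rise of 9.43% (0.13 ± 0.035, adjusted p = 0.00391). Both electron-carrying subunits encoded in the nucleus passed the test. Among the other small subunits Uqcrb rose by 9.03% and Uqcrq by 8.79%, the latter not without the second lenvatinib library (adjusted p = 0.0515; 0.00185 to 0.0515 over all alternatives). Uqcr10 (0.11 ± 0.044, adjusted p = 0.0637) lay above the untreated libraries without being called, and the hinge protein gene Uqcrh (0.045 ± 0.032, adjusted p = 0.333) overlapped. The core protein genes Uqcrc1 (0.057 ± 0.033, adjusted p = 0.208) and Uqcrc2 (0.073 ± 0.032, adjusted p = 0.0883) were not called either. Uqcrc1 was called higher without the second untreated library (0.091, adjusted p = 0.0458; 0.0458 to 0.736 over all alternatives) and Uqcrc2 without the first (0.10, adjusted p = 0.0284; 0.0284 to 0.309).

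Cycs encodes cytochrome c, which shuttles electrons between complexes III and IV and, when released from mitochondria, starts apoptosis. It was at 122, 118 and 122 CPM in the untreated and 139, 133 and 134 CPM in the lenvatinib libraries. All lenvatinib libraries lay above all untreated ones, a rise of 11.96% (0.16 ± 0.032, adjusted p = 9.44e-05). Of the 50-base words in its longest annotated transcript 28.5% also occur in transcripts of other genes, mostly of Gm10053, tagged a retrogene in GENCODE M21, so the value of Cycs is uncertain by what the counting did with such reads.

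Complex IV had 7 of 13 tested genes higher and 1 lower, with a median of 0.11, and of its 3 tested heart and muscle forms 1 was called higher (Cox7a1), 1 lower (Cox6a2) and 1 not called (Cox8b). Without the first untreated library 4 were called higher, with Cox6c2, Cox7a1 and Cox7a2 lost. Subunits without a tissue isoform were mixed. Cox5b was at 116, 119 and 113 CPM in the untreated and 129, 132 and 126 CPM in the lenvatinib libraries. Its lenvatinib libraries all lay higher, a rise of 11.1% (0.15 ± 0.033, adjusted p = 0.000321). It shares 25.9% of its 50-base words with Gm11273, which leaves the same uncertainty. The partner subunit gene Cox5a (0.023 ± 0.033, adjusted p = 0.669) overlapped between the groups, and so did Cox7c (0.02 ± 0.036, adjusted p = 0.729). Cox6c rose by 7.66% (0.11 ± 0.031, adjusted p = 0.00767), but not without the third untreated library (adjusted p = 0.0727; 0.00193 to 0.0727 over all alternatives).

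Subunit 6a showed its isoforms moving in opposite directions. Cox6a1, the widely expressed form on chromosome 5 (115483701 to 115487040; gene positions are as deposited and match no annotation used here), was at 100.4, 97.1 and 101 CPM in the untreated and 109, 108 and 113 CPM in the lenvatinib libraries. It rose by 10.8% (0.15 ± 0.034, adjusted p = 0.000688) with no overlap. Cox6a2, the heart and muscle form on chromosome 7 (127804607 to 127805559), was at 20.8, 22.5 and 22.7 CPM in the untreated and 16.9, 17.6 and 16.1 CPM in the lenvatinib libraries. All its lenvatinib libraries lay below the untreated ones, and it fell by 23.3% (-0.38 ± 0.067, adjusted p = 1.42e-05). Cox6a2 remained called lower in all 19 alternatives run. Within each library the log2 ratio of Cox6a2 to Cox6a1 counts was -2.27, -2.11 and -2.15 in the untreated and -2.69, -2.61 and -2.81 in the lenvatinib libraries. The ratio was thus 1.44-fold lower with lenvatinib (a difference of -0.53; two-sided exact permutation p = 0.1, the smallest 3 against 3 libraries allow; 0.2 adjusted over 4 isoform pairs). Per length, Cox6a2 made up 17.8 ± 0.856% (SD, n = 3) of the pair in untreated and 13.1 ± 0.783% in lenvatinib cells.

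Subunit 7a had its muscle form at a low level. Cox7a1, the heart and muscle form on chromosome 7 (29883569 to 29885503), was at 1.504, 2.47 and 1.67 CPM in the untreated and 3.596, 3.31 and 2.29 CPM in the lenvatinib libraries, or 40 to 89 counts per library. The second untreated library lay above the third lenvatinib library, so the groups overlapped. The fit called Cox7a1 61.5% higher (0.69 ± 0.20, adjusted p = 0.00788), but not without the first untreated library (adjusted p = 0.0569) or the first lenvatinib one (adjusted p = 0.0599; 0.000981 to 0.0599 over all alternatives). Cox7a2, the widely expressed form, was at 63.6, 67.8 and 64.9 CPM in the untreated and 73.4, 71.03 and 70.7 CPM in the lenvatinib libraries. It rose by 9.58% (0.13 ± 0.039, adjusted p = 0.00775) without overlap, though not without the first untreated library (adjusted p = 0.0538; 0.00459 to 0.0538 over all alternatives). The log2 ratio of Cox7a1 to Cox7a2 was -5.40, -4.78 and -5.28 in the untreated and -4.35, -4.42 and -4.95 in the lenvatinib libraries. These ratios overlapped (a difference of 0.58; exact permutation p = 0.2, 0.267 adjusted over 4 pairs). Cox7a2l, which helps join complexes III and IV into supercomplexes, was at 117, 115 and 119 CPM in the untreated and 114, 111 and 106 CPM in the lenvatinib libraries. Its lenvatinib libraries all lay lower, but the fall was not called (-0.084 ± 0.034, adjusted p = 0.0608); it was called lower in 6 of 19 alternatives, among them the removal of trends on GC content and length (adjusted p = 0.0257; 0.0244 to 0.341 over all alternatives).

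Subunits 6b, 7b and 8 completed the isoform families. Cox6b1, the widely expressed form, was at 144, 147 and 143 CPM in the untreated and 169, 153 and 156 CPM in the lenvatinib libraries. The first lenvatinib library was the highest, and all 3 lay above the untreated ones (0.14 ± 0.033, adjusted p = 0.00121). Its testis form Cox6b2 had 0 to 4 counts. Cox7b was at 109, 113 and 115 CPM in the untreated and 120.1, 117 and 119 CPM in the lenvatinib libraries. It did not pass the test (0.078 ± 0.033, adjusted p = 0.0726) although the groups did not overlap, and its testis form Cox7b2 had 0 to 6 counts. Cox8b, the heart and muscle form of subunit 8, was at 9.66, 8.31 and 9.596 CPM in the untreated and 8.69, 9.29 and 9.36 CPM in the lenvatinib libraries. Its groups overlapped (-0.012 ± 0.095, adjusted p = 0.945). The widely expressed Cox8a had 0 to 3 counts and the testis form Cox8c 0 in every library, and the lung form of subunit 4, Cox4i2, had 1 count in 1 untreated library. A count of 0 allows up to 3 counts, or 0.0926 to 0.122 CPM depending on the library, for counting error only. A row at or near 0 in this table is not read as an absent transcript. No ratio of Cox8b to Cox8a was therefore formed. Cox6c2, a short row on chromosome 12 whose 50-base words are to 52.7% shared with Cox6c, was at 0.978, 0.901 and 0.973 CPM in the untreated and 1.45, 1.84 and 1.42 CPM in the lenvatinib libraries. Its rise (0.71 ± 0.25, adjusted p = 0.0265) is uncertain because reads can be split with Cox6c. The call was lost in 6 of 18 alternatives (adjusted p 0.0249 to 0.125 over all alternatives). These were DESeq2 (adjusted p = 0.0878), a threshold of 0.01, and leaving out any of the untreated libraries or the second lenvatinib one.

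**Figure D3:**
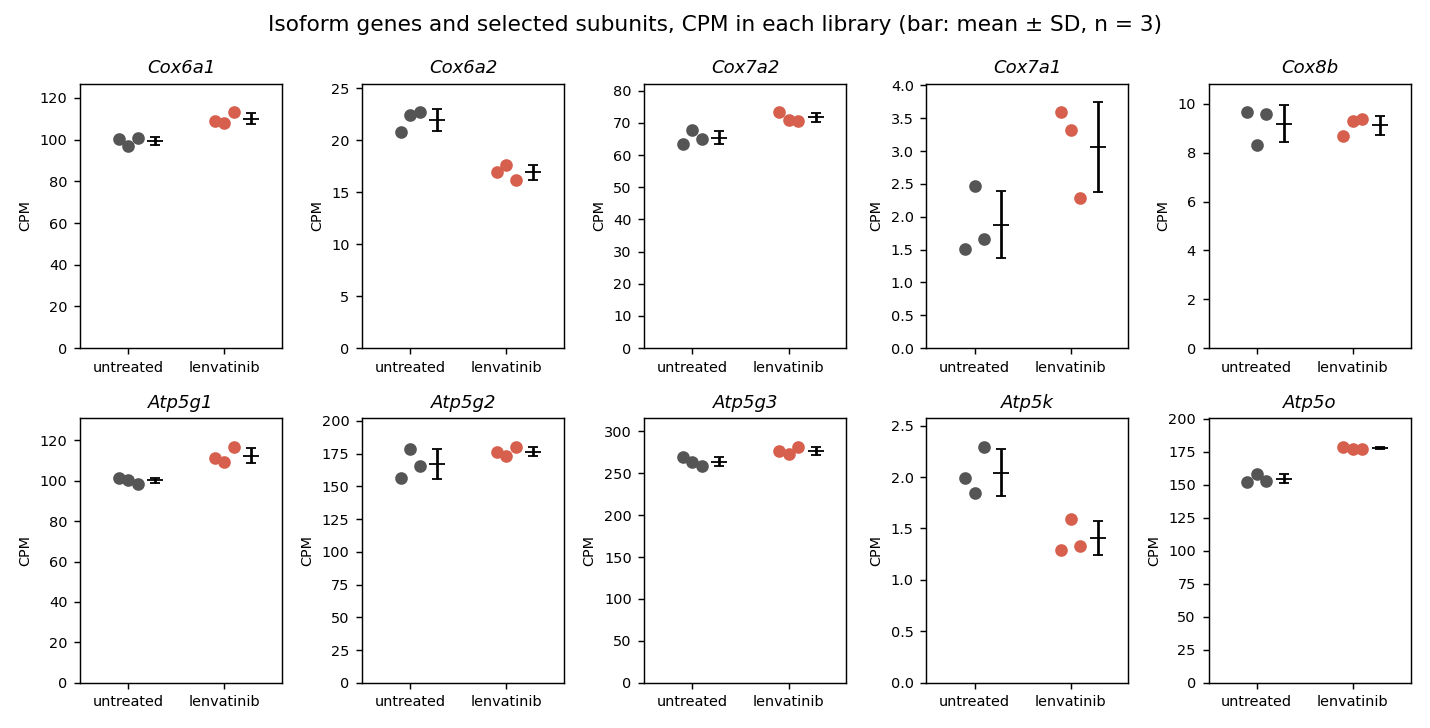
CPM of isoform genes and of Atp5k and Atp5o in each library, with the mean and SD of 3 libraries beside the points; each axis starts at 0 and has its own scale. Cox6a1 and Cox6a2 move apart, Cox7a1 overlaps between groups, and Cox8b overlaps as well.

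Promoters of isoform genes are shown because the forms differ in the tissues that express them. Only Cox7a1 and Cox7a2 among those printed are forms of the same subunit. RefSeq windows (GRCm38.p6) of 250 bases before to 50 bases after the start were matched by symbol for 37 of the 49 members; Cox6a2 is among the others. Capitals mark matches, on either strand, to the motif of the mitochondrial gene activator NRF1 (GCGCA and GCGC with any 1 base between them), to the core motif of ETS factors such as GABP (CCGGAAG) or to the E-box of myogenic factors (CAGCTG). The first 2 are the muscle forms Cox7a1 (chr7:30183921-30184220, plus strand) and Cox8b (chr7:140900397-140900696, minus strand), and the others are the widely expressed forms Cox7a2 (chr9:79759804-79760103, minus strand) and Cox6a1 (chr5:115348909-115349208, minus strand).
Cox7a1: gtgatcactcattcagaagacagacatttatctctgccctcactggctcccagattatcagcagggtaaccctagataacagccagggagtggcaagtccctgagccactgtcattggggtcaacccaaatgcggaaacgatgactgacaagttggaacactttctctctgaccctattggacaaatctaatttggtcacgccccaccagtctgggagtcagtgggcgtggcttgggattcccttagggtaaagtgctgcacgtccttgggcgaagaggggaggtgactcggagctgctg
Cox8b: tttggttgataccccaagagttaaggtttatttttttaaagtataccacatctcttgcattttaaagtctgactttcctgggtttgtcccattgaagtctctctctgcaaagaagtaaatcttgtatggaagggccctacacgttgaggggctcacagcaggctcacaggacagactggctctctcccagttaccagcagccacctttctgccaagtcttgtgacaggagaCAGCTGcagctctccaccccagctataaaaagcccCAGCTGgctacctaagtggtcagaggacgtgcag
Cox7a2: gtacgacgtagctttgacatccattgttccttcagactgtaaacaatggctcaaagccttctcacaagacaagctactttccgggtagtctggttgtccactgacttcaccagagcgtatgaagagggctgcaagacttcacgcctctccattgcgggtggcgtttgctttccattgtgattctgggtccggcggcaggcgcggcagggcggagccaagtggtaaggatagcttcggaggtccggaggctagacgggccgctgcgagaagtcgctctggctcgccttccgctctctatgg
Cox6a1: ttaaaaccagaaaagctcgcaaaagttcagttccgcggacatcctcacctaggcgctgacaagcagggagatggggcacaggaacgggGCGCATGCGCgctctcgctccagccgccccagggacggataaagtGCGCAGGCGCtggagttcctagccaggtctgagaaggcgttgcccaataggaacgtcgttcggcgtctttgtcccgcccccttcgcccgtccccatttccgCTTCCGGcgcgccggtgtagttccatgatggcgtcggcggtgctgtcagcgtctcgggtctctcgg
Cox6a1 held 2 NRF1 matches and 1 ETS match and 32 CG dinucleotides. Cox8b held 2 E-boxes, at -19 and 16 from the start, and 2 CG dinucleotides. Its widely expressed partner Cox8a, not printed, held 2 ETS matches and no NRF1 match or E-box. Cox7a1 and Cox7a2 held none of these 3 motifs, with 7 and 20 CG dinucleotides. Over all matched members 10 of 37 (27%) held an NRF1 match, beside 5.19% of the 27025 genes with a window, and 13 (35.1%) held an ETS match, beside 9.93%. An E-box stood in 2 of 37, beside 18.3% of all genes. The Sp1 motif GGGCGG was in 40.5% of members and 38.2% of all genes, the ERR motif AAGGTCA in 13.5% and 5.38%, the TATA box TATAAA in 10.8% and 15.7%, and the MEF2 motif, CTA and TAG with any 4 bases between them, in 2.7% and 4.23%. NRF1 matches were in 5 of the 15 matched members called higher and in 4 of the 18 not called, and ETS matches in 5 and 6.

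Complex V had 5 of 17 genes higher and 1 lower, with a median of 0.054. It is described by part of the enzyme, without a test between parts. In the catalytic head and central stalk 3 of 5 rose. Atp5b, the catalytic beta subunit on chromosome 10 (127919142 to 127926260), was the most abundant member per length, at 326 CPM per kilobase in untreated cells. It was at 1375, 1406 and 1367 CPM in the untreated and 1537, 1550.5 and 1541 CPM in the lenvatinib libraries. The groups lay far apart for their spread, a rise of 11.6% (0.16 ± 0.024, adjusted p = 9.31e-07). The alpha subunit gene Atp5a1 was at 587, 613 and 589 CPM in the untreated and 635, 642 and 637 CPM in the lenvatinib libraries and rose by 7.05% (0.098 ± 0.026, adjusted p = 0.00357). The gamma subunit gene Atp5c1, which forms the turning shaft, rose by 10.2% (0.14 ± 0.032, adjusted p = 0.000778). The delta and epsilon subunit genes Atp5d (0.0069 ± 0.028, adjusted p = 0.895) and Atp5e (0.054 ± 0.038, adjusted p = 0.327) overlapped between groups.

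The c ring, which turns as protons pass, is encoded by 3 genes that give the same mature protein. Atp5g1 was at 101, 100.4 and 98.6 CPM in the untreated and 111, 109 and 117 CPM in the lenvatinib libraries. It rose by 12.5% (0.17 ± 0.034, adjusted p = 0.00013) with no overlap. Atp5g2 was at 156, 179 and 165 CPM in the untreated and 177, 173 and 180.3 CPM in the lenvatinib libraries, with the second untreated library inside the lenvatinib range (0.083 ± 0.038, adjusted p = 0.115). Without that library Atp5g2 was called higher (0.13, adjusted p = 0.0023), as it was with no filter (adjusted p = 0.0334), and without the first untreated library its log2 fold change was 0.038 (0.0023 to 0.503 for the adjusted p over all alternatives). Atp5g3 was at 269, 263 and 259 CPM in the untreated and 276, 272 and 282 CPM in the lenvatinib libraries. Its lenvatinib libraries all lay higher, but it was not called (0.069 ± 0.028, adjusted p = 0.0582). It was called higher with upper quartile factors (adjusted p = 0.0354) and without the first untreated library (adjusted p = 0.0442; 0.0354 to 0.218 over all alternatives). The log2 ratio of Atp5g1 to Atp5g3 counts was -1.41, -1.39 and -1.39 in the untreated and -1.31, -1.32 and -1.27 in the lenvatinib libraries, a difference of 0.099 without overlap (exact permutation p = 0.1, 0.2 adjusted over 4 pairs). The ratio of Atp5g2 to Atp5g3 differed by 0.015 (exact permutation p = 0.8, 0.8 adjusted). Per length, Atp5g3 made up 51.1 ± 1.65% of the c ring counts without and 50.6 ± 0.162% with lenvatinib (SD, n = 3). Atp5g1 made up 8.69 ± 0.220% and 9.21 ± 0.139%. These shares depend on the deposited lengths, which are 4919 bases for Atp5g1, 1771 for Atp5g2 and 2204 for Atp5g3. A length that counts rarely used exons lowers the share of its gene.

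In the peripheral stalk, which holds the head in place, 1 of 4 genes rose. Atp5o, the OSCP subunit on chromosome 16 (91722102 to 91728575), was at 152, 158 and 153 CPM in the untreated and 179, 177 and 177 CPM in the lenvatinib libraries. The lenvatinib libraries were almost equal, and the rise of 15.02% (0.20 ± 0.03, adjusted p = 6.3e-07) had the smallest p of all members. Of its 50-base words 34.9% are shared with Gm15976, an overlapping row on the other strand with 0 counts in every library. The level of Atp5o is therefore uncertain by how the counting assigned reads in this overlap, for which no strand setting is given. The other stalk genes Atp5pb (0.02 ± 0.028, adjusted p = 0.659), Atp5h (0.05 ± 0.036, adjusted p = 0.318) and Atp5j (0.0053 ± 0.032, adjusted p = 0.93) were not called. In the membrane part, which takes part in pairing the enzymes into dimers, none of 5 genes was called higher (none at an unadjusted p under 0.05, by DESeq2 or by limma-voom). Atp5k, subunit e, was at 1.99, 1.84 and 2.29 CPM in the untreated and 1.29, 1.596 and 1.33 CPM in the lenvatinib libraries, or 32 to 66 counts per library. It fell by 31.6% (-0.55 ± 0.21, adjusted p = 0.0484). The call was close to the threshold and was lost in 11 of 18 alternatives, among them DESeq2 (adjusted p = 0.143) and without any library but the second lenvatinib one (0.0303 to 0.198 over all alternatives). Atp5l (-0.069 ± 0.036, adjusted p = 0.158), Atp5md (-0.021 ± 0.038, adjusted p = 0.732), Atp5mpl (0.089 ± 0.045, adjusted p = 0.145) and Atp5j2 (0.037 ± 0.034, adjusted p = 0.472) were not called. Atp5l and Atp5k are subunits g and e, which lie next to each other. All lenvatinib libraries lay below the untreated ones in both, as in 20.5% of all rows tested. In Atp5mpl of the same part they all lay above, as in 19.6% of all rows tested.

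The promoters of the members of complex V with the smallest p, Atp5b (chr10:128083057-128083356, plus strand) and Atp5o (chr16:91931581-91931880, minus strand), are shown with the same marks.
Atp5b: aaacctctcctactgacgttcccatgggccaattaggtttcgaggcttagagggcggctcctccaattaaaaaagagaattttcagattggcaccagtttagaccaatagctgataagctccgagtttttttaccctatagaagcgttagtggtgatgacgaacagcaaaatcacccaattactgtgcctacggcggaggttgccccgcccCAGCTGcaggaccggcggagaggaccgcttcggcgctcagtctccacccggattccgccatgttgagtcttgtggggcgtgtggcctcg
Atp5o: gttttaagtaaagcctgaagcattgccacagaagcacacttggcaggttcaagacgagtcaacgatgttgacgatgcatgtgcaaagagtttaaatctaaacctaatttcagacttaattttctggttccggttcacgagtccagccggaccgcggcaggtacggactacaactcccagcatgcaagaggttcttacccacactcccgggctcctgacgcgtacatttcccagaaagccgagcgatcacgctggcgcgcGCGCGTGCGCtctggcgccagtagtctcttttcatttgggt
Atp5b held an E-box at -39 and Atp5o an NRF1 match at 9 from the start. They shared no marked motif.

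**Figure D4:**
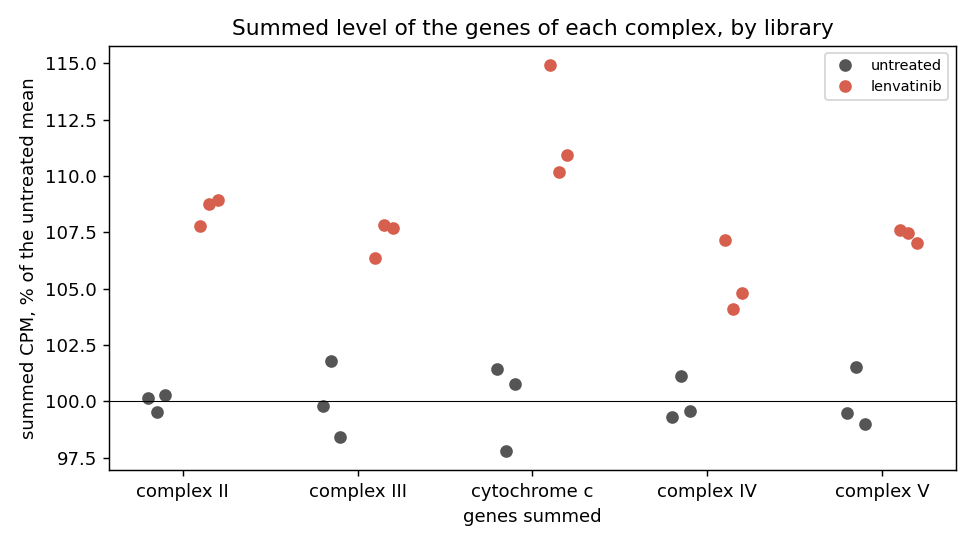
Summed CPM of the genes of each complex in each library, as percent of the mean of the untreated libraries; the axis does not start at 0. The lenvatinib libraries lie above the untreated ones in each block, from 104.1% in complex IV to 114.9% for cytochrome c.

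Summed over genes, the lenvatinib libraries stood at 108 to 109% of the untreated mean in complex II, 106 to 108% in complex III, 104 to 107% in complex IV and 107 to 108% in complex V. The untreated libraries were between 98.4 and 102% in these complexes. Atp5b has the highest level in complex V and weighs most in its sum. The differences between complexes were not tested.

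Of 36 tested genes on a list of assembly factors that also holds the complex V inhibitor Atpif1, 3 rose and 1 fell, with a median of 0.013. The risen genes were Higd1a (from 28.6 ± 1.54 to 33.8 ± 2.64 CPM; 0.24 ± 0.058, adjusted p = 0.00149), which binds complex IV, Sco1 (0.24 ± 0.067, adjusted p = 0.00477), which delivers copper to complex IV, and Cox20 (0.26 ± 0.082, adjusted p = 0.0153), which helps assemble its subunit 2. The gene that fell was Atpif1 (from 81.5 ± 1.48 to 72.9 ± 2.87 CPM; -0.16 ± 0.038, adjusted p = 0.000826), which stops complex V from splitting ATP and builds no complex. It was the only gene of the list that was lower at an unadjusted p under 0.05. Of 28 other genes of mitochondria 8 rose and none fell (13 rose and none fell at an unadjusted p under 0.05; 7 and 8 rose and none fell with DESeq2 and limma-voom), with a median of 0.058. Slc25a4, the muscle ATP and ADP carrier, rose from 325 ± 2.68 to 379 ± 5.32 CPM (0.22 ± 0.027, adjusted p = 1.22e-08), and the outer membrane channel gene Vdac3 and the prohibitin gene Phb rose by 0.17 and 0.16 on the log2 scale. The shares called higher, 8.33% of that list and 28.6% of the other mitochondrial genes, stand beside the background of 13.3%. Among rows with a mean of at least 40 CPM 19.3% were called higher. Neither list was matched to the members by level, so these shares are not comparable with the members' 47.7%.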

How the data were processed

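RNA sequencing counts of 6 C2C12 libraries (3 untreated, 3 lenvatinib) were analysed as deposited: whole-number counts per gene row, not normalized, per the file headers and values. The labels' protocols name Hisat2 2.0.1 as the aligner, and the submitters' processing notes name HTSeq 0.6.1 and mm10. The sources used here give no strand setting or filter. A deposited feature length served for levels per length and a bias check. The positions of the 49 members differ from GENCODE M21 (GRCm38) in every case, so they are printed as deposited, without a build.

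Groups came from the sample titles. The test was edgeR 4.0.16 (glmQLFit with robust estimation, glmQLFTest, TMM factors, filterByExpr with a minimum count of 10 and total of 15) in R 4.3.3, adjusted over 14989 rows; the SE was derived from the F statistic. Alternatives were DESeq2 1.42.0, limma-voom (limma 3.58.1), other scalings, filters and thresholds, removed length and GC trends, a replicate block and each library left out. The script was tested on simulated data. Isoform ratios used pairs with at least 10 counts in every library. Within groups the chi-square per degree of freedom was 2.78 to 5.6, above sampling noise.

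Values by library are printed for all members of isoform families (rows not tested by their counts), Cycs and Sdha to Sdhd. They are also printed for the 3 called members with the smallest p in each direction in complexes III, IV and V. Outside this choice Atp5a1 and Cox6c2 are printed by library too. Others are given by fold change. The members and lists were chosen with earlier results of these data known. In 6 members (Atp5a1, Atp5d, Atp5j, Atp5md, Cox6c and Uqcrh) the gene span overlaps a row on the other strand with at least 100 counts per library. Where exons overlap as well, reads cannot be told apart without strand. Atp5j shares 20.2% of its 50-base words with Gabpa, and Atp5a1, Atp5d and Uqcrh share none with other genes. Words shared with other genes also made up 27.9% in Cox7c, 24.8% in Uqcrc2, 23.8% in Atp5h and 19.2% in Uqcrb. They made up 17.7% in Cox7a2l, 14.8% in Atp5g2, 11.6% in Atp5g1 and 10.5% in Cox5a. The values of these genes are likewise uncertain by what the counting did with such reads.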

Additional observations from a re-analysis of the deposited data

How the results depend on the processing

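No tested member changed direction while called under any of the 19 alternatives. The count of members called higher was 18 to 24 (21 in the reported fit). Called lower were 3 with the length trend, with or without GC, removed, 1 with upper quartile factors, no filter, DESeq2, limma-voom, an adjusted p of 0.01 and the replicate block, and 1 to 2 with a library left out; Atp5k is the gene lost. In complex V the lower count was 0 under those settings and with a filter of 5 CPM, and 0 to 1 with a library left out. In complex IV it was 2 with a filter of 5 CPM, with the length trend or the GC and length trends removed, and with the replicate block and these trends together, through Cox7a2l, and 1 to 2 with a library left out; its higher count was 4 to 7 with a library left out. The members are shorter than other rows (median length 1847 against 4256 bases), and with the GC and length trends removed their median log2 fold change was 0.072 instead of 0.094. The replicate numbers do not pair the libraries: deviations of same-numbered libraries correlated at -0.078 to 0.022, and not every library correlated best with its own number. With the replicate number as a block, 21 members were called higher and 1 lower. The difference in the Atp5g2 to Atp5g3 ratio turned to -0.046 without the first untreated library.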

Other observations

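Of the subunits encoded by mitochondrial DNA, 4 rows (mt-Co2, mt-Co3, mt-Atp6 and mt-Atp8) had 0 counts in every library. The row of mt-Cytb, a complex III subunit, has a feature length of 1211 bases for a span of 1144. It was at 493, 664 and 595 CPM in the untreated and 563, 583 and 844 CPM in the lenvatinib libraries. It was not called (edgeR adjusted p = 0.629). The row of mt-Co1, whose feature length of 8238 bases exceeds its span of 1545, was at 1429, 1976 and 1783 CPM and at 1629, 1682 and 2395 CPM (edgeR adjusted p = 0.724). In both rows the third lenvatinib library was the highest.

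Of 11 rows named as pseudogenes of members, 6 had enough counts for a test and none was called (none at an unadjusted p under 0.05). Cox5b-ps, the most abundant, was at 19.5 ± 1.31 and 20.9 ± 1.35 CPM (SD, n = 3; edgeR adjusted p = 0.304).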
